A study of Mus musculus with 12 samples.

Results

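The Schlafen genes code for a family of related proteins. Their messages were measured in F4/80lo and F4/80hi peritoneal macrophages (Mϕ) sorted from mice on day 6 of a zymosan peritonitis. The members described are Slfn1, Slfn2, Slfn4, Slfn5, Slfn8 and Slfn9, which are 6 of the 47643 gene identifiers listed for each subpopulation and 6 of the 10 Schlafen symbols among them. They were chosen by name, for their values in CIII-treated against VEH-treated libraries of the same replicate number and for their levels in F4/80lo against F4/80hi Mϕ. These contrasts are therefore given as a description, without a test.

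All mice were female C57BL/6 animals of 8 to 12 weeks that had received 5 mg/kg zymosan A, a yeast cell wall preparation, into the peritoneum. From day 1 on, the CIII group was given compound III, an inhibitor of the prostaglandin E synthase mPGES-1, intraperitoneally at 25 mg/kg every day. VEH mice were injected with the solvent only, made of Tween-80, carboxymethyl cellulose and NaCl. Both treatments thus shared the zymosan challenge, and no library came from an unchallenged mouse. F4/80lo Mϕ were sorted as CD45+, CD11b+ cells low in F4/80 and MerTK and high in MHCII, after Ly6G+ neutrophils and CD11c+ MHCII+ dendritic cells had been gated out, and F4/80hi Mϕ as CD45+, CD11b+ cells high in F4/80 and MerTK. Each of the 4 groups held 3 libraries, 12 in all, numbered 1, 2 and 3 by their labels. The labels do not say whether each library came from a separate animal, so the spread between libraries may in part be technical.

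Schlafen genes are known for their induction by interferons and by microbial products in myeloid cells. The mouse genes code for short forms (Slfn1, Slfn2), an intermediate form (Slfn4) and long forms that carry a helicase-like region (Slfn5, Slfn8, Slfn9). Type I interferons act through the receptor chains Ifnar1 and Ifnar2 and the kinases Jak1 and Tyk2, and their target genes carry the interferon-stimulated response element (ISRE). Interferon gamma acts through Ifngr1, Ifngr2, Jak1 and Jak2, and its target genes carry the gamma-activated site (GAS).

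All 6 members lie in 1 cluster on chromosome 11 (GRCm38, GENCODE M21). Slfn5 spans 82951349 to 82964840 on the plus strand. It is followed by Slfn9 (82978390 to 82991830) and Slfn8 (83002158 to 83020810) on the minus strand. Slfn2 (83065112 to 83070678), Slfn1 (83116849 to 83122670) and Slfn4 (83175186 to 83190216) are on the plus strand again. To show what the members share upstream, RefSeq promoter windows (GRCm38.p6, 250 bases before to 50 after each start) were searched on both strands. The stretches around the matches are given 5′ to 3′ on the strand of each gene. The ISRE core, searched as GAAA, 2 bases of any kind and GAAA, was found in the windows of the long members Slfn5, Slfn8 and Slfn9, on the opposite strand in the latter pair, and in 3.44% of all 32851 windows. Capitals mark it in these lines:
Slfn5, chr11:82951922-82951981, plus strand: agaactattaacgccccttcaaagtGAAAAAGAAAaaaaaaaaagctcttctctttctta
Slfn8, chr11:83020824-83020883, minus strand: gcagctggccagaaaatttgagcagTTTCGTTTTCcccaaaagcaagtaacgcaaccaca
Slfn9, chr11:82991841-82991900, minus strand: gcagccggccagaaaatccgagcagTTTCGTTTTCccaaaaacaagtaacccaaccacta

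The match began 155 bases before the RefSeq start of Slfn5, a place that falls inside the gene as GENCODE draws it. In Slfn9 it began 45 bases before the start, and in Slfn8 48 or 136 bases before it, depending on which of the RefSeq starts is used. Slfn8 and Slfn9 also shared an unbroken run of 20 bases in their windows, the longest of all pairs compared. The GAS core, searched as TTC, 3 bases of any kind and GAA, was in 0 of the Schlafen windows and in 8.3% of all windows. Slfn1, Slfn2 and Slfn4 held no ISRE core in these windows. With Slfn3 they had in common the run ACTTCCTGG, the longest in all 4 of these genes. It was picked by comparing their sequences, and 0.843% of all windows held it. Capitals mark this run, which does not overlap the other motifs, in these lines:
Slfn1, chr11:83116721-83116779, plus strand: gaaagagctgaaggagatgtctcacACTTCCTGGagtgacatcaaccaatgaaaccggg
Slfn2, chr11:83065032-83065090, plus strand: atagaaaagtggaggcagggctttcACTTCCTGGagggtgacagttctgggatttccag
Slfn4, chr11:83175088-83175146, plus strand: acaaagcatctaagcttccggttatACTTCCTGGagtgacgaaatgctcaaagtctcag

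In Slfn1 and Slfn4 the shared run extended to 15 bases. It began 74 and 73 bases before their starts, against 55 in Slfn2. These matches describe letters in the windows only and say nothing of which factors bind there.

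Values are normalized counts, that is reads per gene after collapsing by unique molecular identifier (UMI), scaled by a size factor that the authors set per library within each subpopulation. Depth ran from 426624 to 3389448 reads on genes, and 1 read was worth 0.333 to 2.28 normalized counts. The number 3 libraries stood apart. Gm42418, a noncoding gene that overlaps a ribosomal RNA repeat, held 2.65 to 14.3% of their reads and at most 0.579% in the other libraries. The number 3 libraries of F4/80hi Mϕ also carried less message of F4/80 itself (Adgre1, 366 with VEH and 368 with CIII, in reads per 1000000) than the others of that gate (1064 to 1336), and lay near the F4/80lo libraries (205 to 381). Their summed level of 6 resident macrophage markers was 162 and 264 against 1334 to 1819 in numbers 1 and 2. Their Ccr2, a receptor of recruited monocytes, was 1199 and 704 against 20.2 to 306. In F4/80lo Mϕ, VEH replicate 3 had a sum of 7 gate and macrophage markers of 8969 against 16595 and 17080 in VEH replicates 1 and 2. Its resident marker sum was 116 against 430 and 356. In F4/80lo CIII replicate 3 these sums, 15067 and 253, lay between those of CIII replicates 1 and 2. For this reason fold changes and levels are also given for numbers 1 and 2 alone. In these bulk samples, fewer cells of a type and less RNA per cell cannot be told apart. No gate or macrophage marker of 7 was at 0 in any group. The neutrophil list summed to at most 124 reads per 1000000, with Camp at 0 in all 12 libraries and Ly6g at 0 in 10. S100a8 (4.61 to 74.2) and Csf3r (8.28 to 48.4) had reads in all 12. The summed level of 7 monocyte-derived Mϕ genes was 11395, 12234 and 3531 with VEH and 23193, 13569 and 18191 with CIII in F4/80lo libraries, without overlap. In F4/80hi libraries it was 1229, 588 and 3014 with VEH and 4532, 1354 and 12156 with CIII, higher with CIII within every number. The MHCII genes H2-Aa, H2-Ab1 and H2-Eb1 carried most of this sum in every library but VEH replicate 3 of F4/80hi Mϕ. Other listed genes went the other way in F4/80hi number 3, where Ccr2 was 1199 with VEH and 704 with CIII and Ly6c2 336 and 55.0. The part of these shifts in the CIII against VEH values of the members was not tested.

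Across all genes, limma called 0 of 10718 tested F4/80lo genes and 0 of 10499 tested F4/80hi genes at an adjusted p under 0.05. At an unadjusted p under 0.05 289 and 413 were left, which a block for the replicate number raised to 738 and 1187, again with 0 genes past adjustment. The 289 genes were split into 116 higher and 173 lower with CIII, which became 158 and 129 when each library was rescaled to the same total. For F4/80hi Mϕ 135 were higher and 278 lower, or 246 and 186 after that rescaling, which moved the median of all genes by 0.10 on the log2 scale. All 6 Schlafen members passed the filter of a mean of at least 3 normalized counts in both subpopulations.

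Slfn4, a myeloid member known to be induced in activated macrophages, had the lowest log2 fold change (CIII against VEH) of the family over all libraries of either subpopulation. Without CIII replicate 3, Slfn9 was lower, at -1.75 against -1.30 in F4/80lo and -1.25 against -1.10 in F4/80hi Mϕ. In F4/80lo Mϕ the normalized counts of Slfn4 were 136, 125 and 214 with VEH and 27.7, 137 and 25.4 with CIII, in the order of the replicate numbers. CIII replicates 1 and 3 lay below every VEH library, whereas CIII replicate 2 lay among them. The means were 158 ± 48.4 and 63.4 ± 63.8 (SD, n = 3), and the log2 fold change was -1.71 with a standard error of 0.58. It was -2.49 without CIII replicate 2 and -1.30 without CIII replicate 3.

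In F4/80hi Mϕ Slfn4 was at 223, 724 and 167 normalized counts with VEH and at 80.1, 242 and 31.2 with CIII. Number 2 was the highest library of either treatment, and its CIII value exceeded the VEH values of numbers 1 and 3, so the treatments overlapped. Within each number, however, CIII was below VEH, with differences of -1.47, -1.58 and -2.38 on the log2 scale. Of all tested genes, 16.6% were lower within all 3 numbers in this subpopulation. The means were 371 ± 307 and 118 ± 110.1 (SD, n = 3), with a log2 fold change of -1.81 and a standard error of 0.76. Leaving out 1 library at a time gave -2.56 to -1.10. A block for the replicate number, a pairing that the labels do not state, lowered the standard error of every member in both subpopulations. For Slfn4 it became 0.27 here and 0.49 in F4/80lo Mϕ. In F4/80lo Mϕ the differences within numbers 1, 2 and 3 were -2.26, 0.14 and -3.02.

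With numbers 1 and 2 alone the log2 fold change of Slfn4 was -1.06 for the F4/80lo and -1.52 for the F4/80hi subpopulation. Of all genes tested, 97.7% had a higher log2 fold change than Slfn4 among F4/80lo and 99.3% among F4/80hi libraries. This contrast chose the members, so nothing is read from these shares. Whether the Slfn4 values of both subpopulations differ in size was not tested. The summed neutrophil list, in the same order of libraries, was 64.5, 26.8 and 74.9 reads per 1000000 with VEH and 23.1, 56.3 and 51.0 with CIII for F4/80lo Mϕ. For F4/80hi Mϕ it was 49.7, 53.5 and 124 with VEH and 45.5, 36.6 and 41.3 with CIII. Slfn4 on this scale ranged from 26.7 to 801. The part of neutrophil message in the Slfn4 values was not tested.

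**Figure D1:**
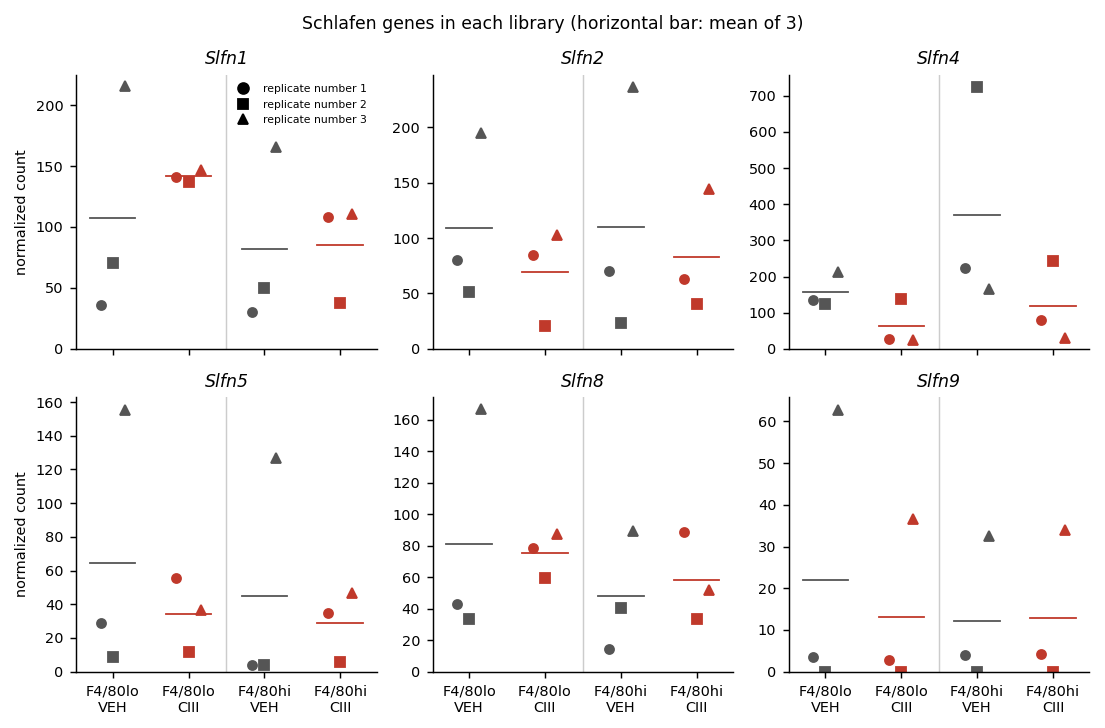
Normalized counts (linear axis from 0) of the 6 Schlafen genes in each of the 12 libraries, with VEH in grey and CIII in red, marker shapes for the replicate numbers and bars for the mean of 3 libraries. In Slfn4 the highest library is VEH replicate 2 of F4/80hi Mϕ at 724, whereas in the other 5 genes it is a VEH replicate 3 library.

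Slfn1, a short member first described as a restraint on T cell growth, was at 36.1, 70.6 and 216 normalized counts with VEH and at 141, 137 and 147 with CIII in F4/80lo Mϕ. The CIII libraries were close together and lay between VEH replicates 2 and 3. The log2 fold change was 0.78 with a standard error of 0.55, and 0.20 to 1.47 when 1 library was left out. Among F4/80hi libraries Slfn1 was at 30.6, 49.6 and 166 with VEH and at 108, 37.3 and 110.5 with CIII. Here CIII replicate 2 lay low among the VEH values. The log2 fold change of 0.27 was smaller than its standard error of 0.66 and ranged from -0.24 without VEH replicate 1 to 0.96 without VEH replicate 3.

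Slfn2, the short member known for keeping T cells and myeloid cells quiescent and viable, was at 80.3, 51.3 and 195 with VEH and at 84.4, 20.6 and 103 with CIII in F4/80lo Mϕ. Values of both treatments were interleaved. The log2 fold change was -0.71 with a standard error of 0.64. It was 0.00 without CIII replicate 2, which held 9 reads of this gene. In F4/80hi Mϕ it was at 70.5, 23.5 and 237 with VEH and at 62.8, 40.9 and 144 with CIII, a log2 fold change of -0.03 with a standard error of 0.78. Leaving out 1 library gave -0.84 (VEH replicate 2) to 0.80 (VEH replicate 3). Each treatment had its highest value in number 3.

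Of the long members, Slfn5 and Slfn9 spread most within a treatment and Slfn8 least of all 6. The pooled SD of log2 values was 1.62 in F4/80lo and 2.18 in F4/80hi libraries for Slfn5, 2.84 and 2.55 for Slfn9, and 0.89 and 1.02 for Slfn8. Slfn5, whose human counterpart is a nuclear protein induced by interferon, was at 29.1, 8.99 and 155 with VEH and at 55.3, 11.4 and 36.5 with CIII in F4/80lo Mϕ. It was at 3.99, 3.92 and 127 with VEH and at 34.7, 6.01 and 46.5 with CIII in F4/80hi Mϕ. The lowest of these, 3.99 and 3.92, rest on 3 reads each. A single VEH library, number 3, was above all others in both subpopulations. The log2 fold changes were -0.28 (standard error 0.89) and 0.64 (standard error 1.25). Without VEH replicate 3 they were 0.78 and 2.20, and without VEH replicate 2 they were -1.21 and -0.15. With edgeR and DESeq2 on recovered reads the sign in F4/80hi Mϕ was negative.

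Slfn8, a long member with a helicase-like region, was at 43.1, 33.4 and 167 with VEH and at 78.7, 59.4 and 87.3 with CIII in F4/80lo Mϕ. The CIII libraries lay above VEH replicates 1 and 2 and below VEH replicate 3. Its F4/80hi values were 14.6, 40.5 and 89.1 with VEH and 88.8, 33.7 and 52.0 with CIII, and the treatments overlapped. The log2 fold changes were 0.25 (standard error 0.55) and 0.50 (standard error 0.64). Without VEH replicate 3 they were 0.95 and 1.11, and without VEH replicate 1 they were -0.01 and -0.16. In F4/80lo Mϕ edgeR and DESeq2 gave a negative sign.

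Slfn9, the long neighbour of Slfn8, was at 3.49, 0 and 62.6 with VEH and at 2.84, 0 and 36.5 with CIII in F4/80lo Mϕ. In F4/80hi Mϕ it was at 3.99, 0 and 32.5 with VEH and at 4.33, 0 and 33.9 with CIII. Number 2 held 0 reads in all 4 groups, which at their depths allows up to 4.06 to 7.03 reads per 1000000 (3 reads, counting error only). Nearly all of the signal was in the number 3 libraries, in both treatments and both subpopulations. The log2 fold changes, -0.33 and 0.05, were smaller than their standard errors (1.57 and 1.52) and ranged from -1.75 to 1.31 and from -1.25 to 1.35 when 1 library was left out.

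No member of 6 had treatments that did not overlap, in either subpopulation. Over all tested genes, 3.82% were higher and 4.92% lower without overlap in F4/80lo Mϕ, and 4.73% and 5.76% in F4/80hi Mϕ. These contrasts chose the members, so nothing is read from these counts. By mean log2 value 4 members were lower and 2 higher with CIII in F4/80lo Mϕ, with a median of -0.30, and 2 were lower and 4 higher in F4/80hi Mϕ, with a median of 0.16. Without VEH replicate 3 the counts were 2 lower and 4 higher, with a median of 0.86, and 1 lower and 5 higher, with a median of 1.03. The median over all tested genes was -0.05 and 0.05. The fold change was smaller than its standard error in 3 and 5 of the members. Within number 3 alone, CIII was below VEH in all 6 members of the F4/80lo and 5 of 6 of the F4/80hi libraries, while within number 1 it was above VEH in 4 and 4. Of all tested genes, 52.6% and 47.8% were lower within number 3, and 48.5% and 50.1% higher within number 1. These counts rest on the contrast that chose the members, and nothing is read from them. With numbers 1 and 2 alone, the log2 fold changes for F4/80lo and F4/80hi Mϕ were 1.44 and 0.69 for Slfn1, -0.60 and 0.30 for Slfn2, 0.61 and 1.67 for Slfn5, 0.83 and 1.13 for Slfn8, and -0.11 and 0.05 for Slfn9. Slfn1, Slfn5 and Slfn8 were then above 0 in both subpopulations. In number 3, the Gm42418 share was 14.3% with VEH against 2.65% with CIII for F4/80lo, 7.82% against 2.86% for F4/80hi Mϕ, and its part in these differences was not tested.

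**Figure D2:**
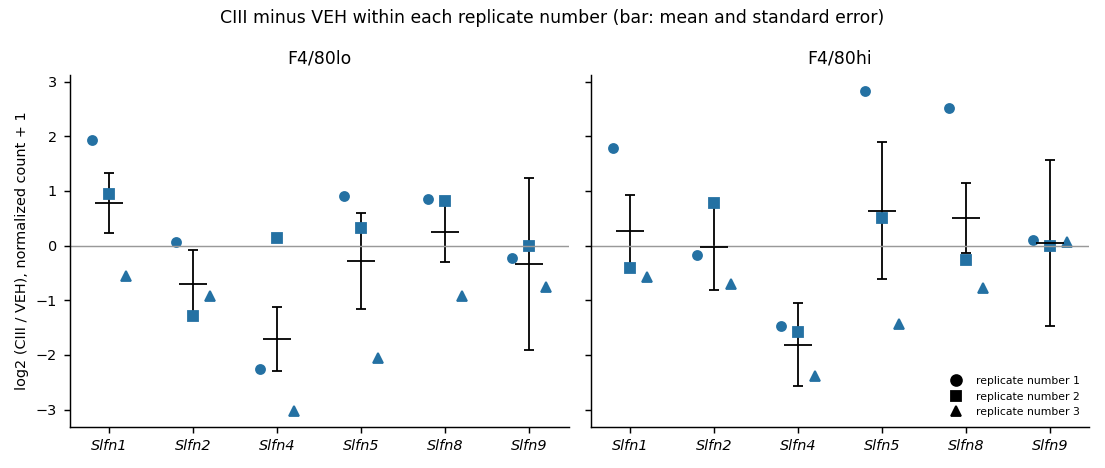
Difference of log2 (normalized count + 1), CIII minus VEH, for each Schlafen gene within replicate numbers 1, 2 and 3 (blue markers), with the mean over 3 libraries per treatment and its limma standard error (black). Slfn4 lies below 0 in all 3 numbers in F4/80hi Mϕ and in numbers 1 and 3 in F4/80lo Mϕ, and most other genes have values on both sides of 0.

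The number 3 libraries were high in most members. Number 3 was the highest library of all 4 groups in Slfn1, Slfn2 and Slfn9, and of 3 groups in Slfn5 and Slfn8. Of the 10097 genes tested in both subpopulations, 14.9% had number 3 highest in all 4 groups and 28.5% in at least 3. Slfn4 went the other way, with number 3 highest in F4/80lo VEH only and lowest in the other 3 groups. The median difference of number 3 from the mean of numbers 1 and 2 over the groups was 2.38 on the log2 scale in Slfn5, 1.54 in Slfn2, 1.42 in Slfn1, 1.09 in Slfn8 and -1.26 in Slfn4. For Slfn9, at 0 in number 2, no such fold is given.

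**Figure D3:**
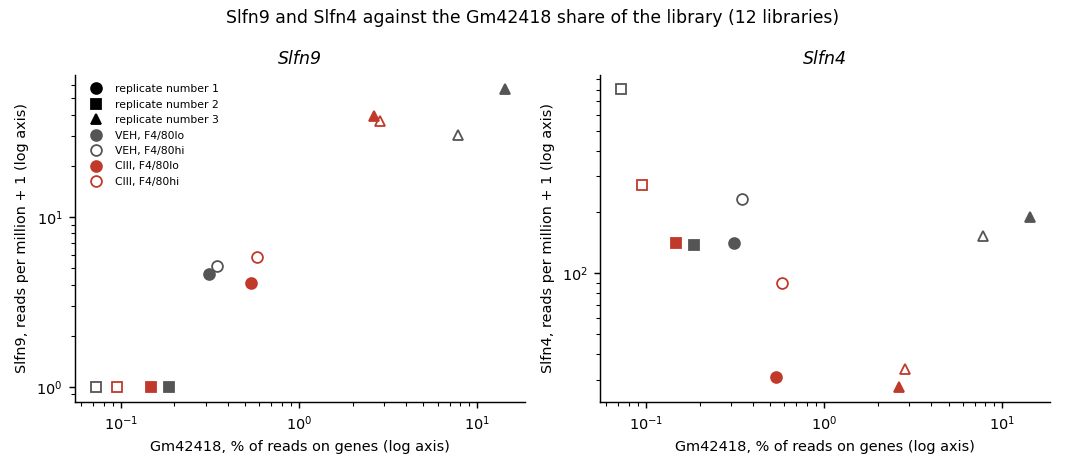
Reads per 1000000 (plus 1, log axis) of Slfn9 (left) and Slfn4 (right) against the share of reads on Gm42418 in percent (log axis) in the 12 libraries, with marker shapes for the replicate numbers, VEH in grey, CIII in red, filled markers for F4/80lo and open markers for F4/80hi Mϕ. Slfn9 is highest in the 4 number 3 libraries, where Gm42418 holds 2.65 to 14.3% of reads, and the 2 lowest Slfn4 values in number 3 are both from CIII.

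Because each subpopulation was normalized separately, levels in F4/80lo and F4/80hi Mϕ were compared in reads per 1000000 recovered reads and not tested. Slfn4 had its highest mean in F4/80hi VEH (395 ± 354, SD, n = 3), then F4/80lo VEH (155 ± 29.3), F4/80hi CIII (131 ± 125) and F4/80lo CIII (65.8 ± 64.9), and none of these neighbours was apart by more than the spread. The highest single library, F4/80hi VEH replicate 2, held 801. The mean log2 difference, F4/80lo minus F4/80hi, was -0.98 with VEH and -0.92 with CIII. With CIII, F4/80lo was below F4/80hi in all 3 numbers, and with VEH in numbers 1 and 2.

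Slfn1 was ordered differently, with 149 ± 7.48 in F4/80lo CIII, 102 ± 79.9 in F4/80lo VEH, 92.5 ± 43.8 in F4/80hi CIII and 79.0 ± 62.9 in F4/80hi VEH. It was higher in F4/80lo than in F4/80hi Mϕ within every number of both treatments, by 0.35 on the log2 scale on average with VEH and 0.83 with CIII. With CIII all F4/80lo libraries (141 to 154) lay above all F4/80hi libraries (42.0 to 119.8), the only member and treatment without overlap. Among all genes tested in both, 6.18% were higher in F4/80lo without overlap with CIII and 4.51% were lower, and with VEH 7.14% were higher and 2.6% lower. Slfn5 was 1.29 higher on the log2 scale in F4/80lo Mϕ with VEH and 0.33 with CIII, and Slfn8 0.69 and 0.40, all within their spread. For Slfn2 the difference was 0.32 with VEH and -0.39 with CIII, and for Slfn9 0.24 and -0.13. Adgre1, Ccr2 and the resident markers of the F4/80hi number 3 libraries lay toward the F4/80lo values as given above, and their part in these level differences was not tested. With numbers 1 and 2 alone, the VEH differences were -1.63 for Slfn4, 0.35 for Slfn1, 0.63 for Slfn2, 1.81 for Slfn5, 0.60 for Slfn8 and -0.08 for Slfn9, which changed sign. The CIII differences were then -1.24 for Slfn4, 1.04 for Slfn1, -0.35 for Slfn2, 0.67 for Slfn5, 0.23 for Slfn8 and -0.25 for Slfn9.

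The remaining Schlafen genes were weak. Slfn3 held 17 reads in all F4/80lo and 27 in all F4/80hi libraries. The pseudogene Slfn10-ps held 107 and 69, of which 100 were in VEH replicate 3 of F4/80lo Mϕ. Slfn14 held 0 and 1 reads, and Slfnl1, on chromosome 4, 0 and 0. The antisense gene Slfn5os, which overlaps Slfn5, held 0 reads in all 12 libraries. As Schlafen genes are near copies of each other, 75-base windows, the read length, were taken every 5 bases over the last 500 bases of the longest transcript of each member. None of the 86 windows of any member occurred in a transcript of another gene. Other annotated transcripts of Slfn4, Slfn5, Slfn8 and Slfn9 were not taken, so reads from their ends are not covered.

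To find the genes with the most similar pattern, log2 values were centred within each subpopulation and compared over the 12 libraries by mean absolute difference, among 7822 genes with a mean of at least 10 in both tables. Slfn4 was nearest to Card9, an adaptor of the zymosan receptor Dectin-1, at 0.45 on the log2 scale. The mean deviation of Slfn4 itself was 1.10, and 2481 of the 7822 genes were closer to Slfn4 than that. Rmc1 (0.59) and the lysosomal nuclease Dnase2a (0.63) came next. Card9 was at 98.9, 86.0 and 76.6 normalized counts with VEH and at 16.3, 41.1 and 15.5 with CIII in F4/80lo Mϕ. Among F4/80hi libraries it was at 55.8, 96.7 and 19.9 with VEH and at 15.9, 49.3 and 13.1 with CIII. As in Slfn4, CIII replicate 2 was the highest CIII library in both subpopulations. Card9 was picked for closeness to Slfn4 over the same libraries, so nothing is read from this.

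**Figure D4:**
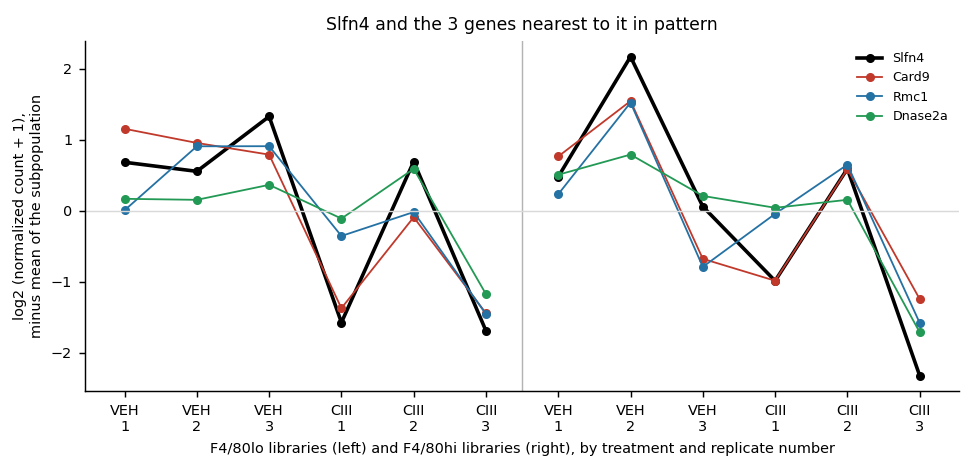
Log2 (normalized count + 1) of Slfn4, Card9, Rmc1 and Dnase2a, each minus its mean over the 6 libraries of the subpopulation, in F4/80lo (left) and F4/80hi (right) libraries. CIII replicate 2 is the highest CIII library and CIII replicate 3 the lowest CIII library for all 4 genes in both subpopulations. Card9, Rmc1 and Dnase2a were chosen for their closeness to Slfn4 over these libraries, so nothing is read from the shared order.

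The other members had other neighbours. Slfn1 was nearest to the ubiquitin ligase Rnf213 (0.29), the tryptophanyl-tRNA synthetase Wars (0.30) and Trim30d (0.31). Slfn8 was nearest to Trim30a (0.26), Ifi202b (0.27) and Rnf213 (0.27), and Slfn5 to the membrane protein Ms4a6b (0.31), Ifi204 (0.42) and Ifi203-ps (0.49). Slfn2 lay nearest to Sdccag8 (0.22), Ankrd49 (0.24) and Rbm26 (0.25). Many genes came closer than the member's own mean deviation, namely 3057 of 7822 for Slfn1, 2803 for Slfn2, 3614 for Slfn5 and 2204 for Slfn8. Slfn9 lay nearest to Gm42418 itself (0.54), then Btg1 (0.57) and the mitochondrial ribosomal RNA mt-Rnr2 (0.60), with a mean deviation of its own of 1.89 that 3475 genes came under. Within the family, Slfn1 and Slfn8 were the most alike pair (0.39), and Slfn4 was 1.53 to 2.64 from each of the other members.

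Other interferon response genes were read from a list of 46, made of 29 induced genes, 13 receptor and signalling genes and 4 ligands. By limma with Benjamini-Hochberg adjustment, 0 of 41 tested genes passed for F4/80lo and 0 of 40 for F4/80hi Mϕ, and the 4 ligands were too weak to be tested. Of the induced genes, 7 had a log2 fold change above 0 and 21 below in F4/80lo Mϕ, with a median of -0.25, and 10 and 17 in F4/80hi Mϕ, with a median of -0.30. Over all tested genes, 54.1% and 46.5% were below 0. Without VEH replicate 3, 16 and 20 of them were above 0 and the medians were 0.25 and 0.42. Leaving out other VEH libraries moved the list the other way. Over all tested list genes, 18 were above and 23 below 0 in F4/80lo libraries with all 6, 11 and 30 without VEH replicate 1, and 12 and 29 without VEH replicate 2. For F4/80hi the counts were 20 and 20 with all 6, 13 and 27 without VEH replicate 1, and 17 and 23 without VEH replicate 2. With edgeR and with DESeq2 they were 13 and 28 in F4/80lo and 14 and 26 for F4/80hi, whose list median was 0.04 with limma and -0.25 with either of these tools. For the receptor and signalling genes, 11 of 13 were above 0 in F4/80lo (median 0.32) and 10 of 13 in F4/80hi Mϕ (median 0.47), and 13 and 12 without VEH replicate 3.

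The interferon gamma receptor chain Ifngr1 had the smallest p of the list in F4/80lo Mϕ. It was at 521, 438 and 422 normalized counts with VEH and at 810.1, 1110.2 and 983 with CIII. All CIII libraries lay above all VEH libraries. The log2 fold change was 1.06 with a standard error of 0.34 (limma adjusted p = 0.9996). Its F4/80hi values were 312, 206 and 449 with VEH and 506, 635 and 856 with CIII, again without overlap (log2 fold change 1.08, limma adjusted p = 0.992). Its kinase Jak2 was at 31.9, 11.8 and 30.4 with VEH and at 54.1, 38.5 and 72.8 with CIII in F4/80hi Mϕ, without overlap (log2 fold change 1.20, limma adjusted p = 0.992). In F4/80lo libraries the treatments overlapped for Jak2, with a log2 fold change of 0.20.

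Bst2, the antiviral protein tetherin, was at 417, 405 and 557 with VEH and at 228, 255 and 213 with CIII in F4/80hi Mϕ. In F4/80lo libraries it was at 304, 232 and 183 with VEH and at 309, 256 and 148 with CIII, a log2 fold change of -0.05. The F4/80hi treatments did not overlap (log2 fold change -0.97, limma adjusted p = 0.992). In F4/80lo Mϕ the antiviral gene Ifit1 was at 19.8, 37.2 and 21.0 with VEH and at 23.4, 2.28 and 3.32 with CIII, where CIII replicate 1 lay among the VEH values (log2 fold change -1.89, limma adjusted p = 0.9996). Usp18, which removes Isg15 from proteins, was at 6.98, 10.3 and 10.3 with VEH and at 3.55, 2.28 and 0 with CIII, all below the VEH values (log2 fold change -2.03, limma adjusted p = 0.9996). The value of 2.28 in CIII replicate 2 stands for 1 read in both genes. In number 1, 1 read was worth 1.16 with VEH and 0.709 with CIII, so the order of the Usp18 values rests on few reads. For F4/80hi Mϕ the treatments overlapped in Ifit1 and Usp18, with log2 fold changes of -0.64 and -0.86. None of these passed adjustment. At an unadjusted p under 0.05 the list held 1 gene higher and 2 lower in F4/80lo Mϕ, against 1.08% and 1.61% of all tested genes, and 2 higher and 1 lower in F4/80hi Mϕ, against 1.29% and 2.65%. On recovered reads, edgeR gave 1 higher and 0 lower and DESeq2 2 and 0 for F4/80lo, where the lower genes were lost, and both gave 2 and 1 for F4/80hi Mϕ. Without VEH replicate 1 or 2 the F4/80lo counts were 1 and 0. For F4/80hi Mϕ they were 1 and 2 without VEH replicate 1 and 0 and 1 without VEH replicate 2. Leaving out CIII replicate 1, 2 or 3 gave 1 and 3, 3 and 2, and 1 and 1 in F4/80lo Mϕ. In F4/80hi Mϕ it gave 1 and 3, 1 and 1, and 0 and 1. Blocking by replicate number gave 4 and 4 for F4/80lo, where 325 of all 10718 tested genes were higher and 413 lower, and 7 and 1 for F4/80hi Mϕ, where 532 of 10499 were higher and 655 lower. Without VEH replicate 3 they were 8 and 2, beside 300 and 369 of all genes, and 10 and 1, beside 525 and 512.

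**Figure D5:**
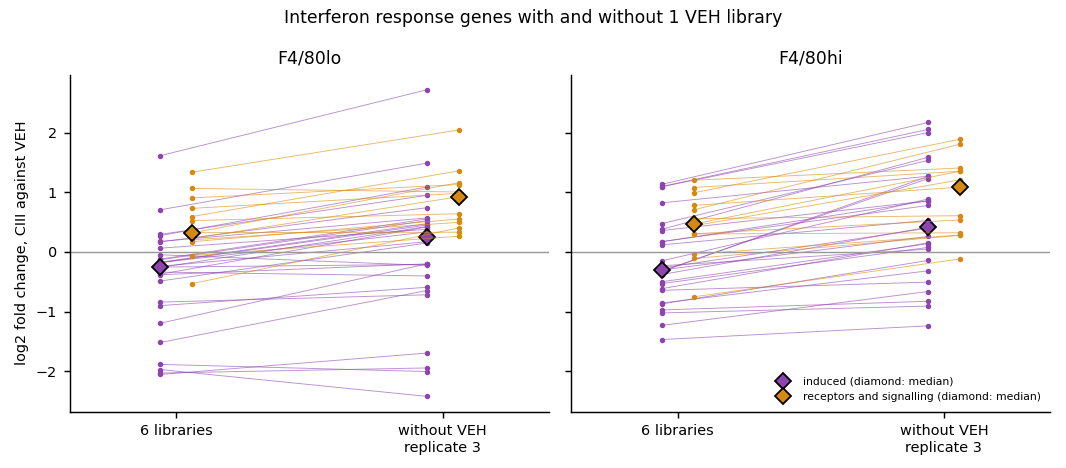
Log2 fold change, CIII against VEH, of the tested interferon response genes over all 6 libraries of a subpopulation and without VEH replicate 3, with 1 line per gene (purple for induced genes, orange for receptors and signalling) and diamonds for medians. The median of the induced genes moves from -0.25 to 0.25 (F4/80lo) and from -0.30 to 0.42 (F4/80hi).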

How the data were processed

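mRNA of sorted Mϕ was sequenced as 3′ libraries with UMIs. Per the study's methods, the authors trimmed reads with Bbduk, mapped them to GRCm38 with STAR, collapsed UMI duplicates, counted reads per gene with HTSeq-count and scaled them with DESeq2. The strand setting of the counting is not given in the sources used here. The deposited values are a signal, namely whole reads scaled by a single size factor for each library, and 100% of them were whole multiples of 1 read (tolerance 0.001). Symbols from GENCODE matched 47224 of the 47643 identifiers.

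Each subpopulation was fitted alone with limma 3.58.1 (R 4.3.3, trend) on log2 (normalized count + 1) for genes with a mean of at least 3, two-sided, with Benjamini-Hochberg adjustment at 0.05. Fold changes on this scale understate those of weak genes. Standard errors come from these fits. The alternatives were other pseudocounts, filters and scalings, the replicate block, each library left out, numbers 1 and 2 alone, and edgeR 4.0.16 and DESeq2 1.42.0 on recovered reads. Scripts were tested on simulated data. Figures were drawn with matplotlib 3.10.9. A count of 0 allows up to 3 reads, or 0.885 to 7.03 per 1000000, for counting error only.

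Same-numbered libraries deviated together from their treatment means (r over genes 0.121, 0.238 and 0.504 for F4/80lo, 0.216, 0.412 and 0.639 for F4/80hi Mϕ, against at most 0.171 and 0.285 for unlike numbers). The pairing rests on the label numbers and these deviations alone, and for number 1 on the label alone.

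Members, lists and tests were chosen with earlier results of these data known. Genes named were all members, the other Schlafen genes, the 3 listed interferon genes with the smallest p per subpopulation and the 3 nearest genes per member. Marker lists for T and NK cells (at most 37.5 reads per 1000000 in any library), mesothelium (1.20), eosinophils with mast cells (16.9), dendritic cells (247) and B cells (164) were summed as well.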

Additional observations from a re-analysis of the deposited data

How the results depend on the processing

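The sign of the Slfn4 log2 fold change held under all 16 alternatives in both subpopulations. Other filters and the replicate block cannot change this value, and all 16 reuse libraries of the contrast that chose the members. Nothing is read from this count. Leaving out 1 library gave -2.49 to -1.30 for F4/80lo, -2.56 to -1.10 for F4/80hi Mϕ, and the other settings gave -1.73 to -1.06 and -1.82 to -1.52. Of the other members, Slfn1 in F4/80lo Mϕ also held its sign under all 16, and the remaining 9 member and subpopulation pairs changed sign under 1 to 5 of them. DESeq2 on recovered reads called 2 genes in F4/80lo Mϕ, Ffar2 (log2 fold change 3.88, DESeq2 adjusted p = 0.00294) and Lrg1 (2.36, adjusted p = 0.0346), named here after their values were seen, where limma and edgeR called 0. In F4/80hi Mϕ all alternatives called 0, and no alternative called an interferon response gene. Among genes at an unadjusted p under 0.05, edgeR gave 286 and 408 and DESeq2 296 and 423. Without VEH replicate 3 the counts were 669 and 1037 against 289 and 413, without VEH replicate 1 they were 154 and 233, with numbers 1 and 2 alone 507 and 732, with no filter, and so more genes tested, 468 in F4/80lo Mϕ, and without CIII replicate 2 270 in F4/80hi Mϕ. The cause of the other shifts was not tested. The replicate block changed no adjusted call. Slfn9 held 0 reads in every number 2 library and Slfn5 3 to 7, so their values there are imprecise.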
